A study of Mus musculus with 13 samples.

Results

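The genes described here are 10 transcription factors that set B cell identity and steer the choice between germinal centre and plasma cell fates: Pax5, Ebf1, Ikzf1, Ets1, Spib, Spi1, Bach2, Bcl6, Prdm1 and Xbp1. They were taken by symbol from read counts of 23336 genes in 13 RNA-seq libraries of mouse splenic B cells. Of the 10, 9 were measured, and all 9 passed the filter on low counts. Spi1 was not analysed here. Cells were Regnase-1 f/f hCD20TamCre (deficient) or Regnase-1+/+ hCD20TamCre (control). Regnase-1, encoded by Zc3h12a, is an RNase that degrades mRNAs of immune genes. Both genotypes carried the same Cre recombinase, named for the human CD20 promoter and for activation by tamoxifen. Whether the Cre was equally active in both genotypes was not tested. The libraries came from deficient cells stimulated for 4 h through the B cell receptor (BCR; n = 3), control cells stimulated in the same way (n = 3), deficient unstimulated naive cells (n = 3) and control unstimulated naive cells (n = 4). The labels as read here give no age and no culture time for the unstimulated cells, so time in culture and receptor stimulation cannot be told apart. B cells had been enriched by removing CD43-bearing cells, a step that also removes B-1 cells and plasma cells.

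Ebf1, Pax5 and Ikzf1 (Ikaros) build the B cell programme during development, and Pax5 holds it in place in mature cells by activating B cell genes and repressing those of other lineages. Ets1 and Spib are ETS family factors that maintain mature B cells. Bach2 and Bcl6 repress Prdm1, whose product Blimp-1 in turn shuts down Pax5, Bcl6 and other B cell genes in plasma cells, where Xbp1 expands the secretory apparatus.

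The 250 bases before the RefSeq transcription start (GRCm38.p6) are printed for the members whose differences by genotype passed the test, Ikzf1 and Spib, for Pax5 and Ebf1, which moved in opposite directions with stimulation, and for the fate genes Prdm1 and Xbp1. Each runs 5′ to 3′ on its gene's strand, and capitals mark matches to the Ikaros core TGGGAA, or TTCCCA on the opposite strand.
Ikzf1, the first of 2 starts in the table, neither with a match, chr11:11685675-11685924, plus strand: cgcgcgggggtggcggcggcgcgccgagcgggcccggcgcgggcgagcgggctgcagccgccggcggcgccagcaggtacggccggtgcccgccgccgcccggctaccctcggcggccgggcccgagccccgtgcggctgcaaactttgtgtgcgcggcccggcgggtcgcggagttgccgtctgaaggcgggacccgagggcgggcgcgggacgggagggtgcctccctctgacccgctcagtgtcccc
Spib, chr7:44532072-44532321, minus strand: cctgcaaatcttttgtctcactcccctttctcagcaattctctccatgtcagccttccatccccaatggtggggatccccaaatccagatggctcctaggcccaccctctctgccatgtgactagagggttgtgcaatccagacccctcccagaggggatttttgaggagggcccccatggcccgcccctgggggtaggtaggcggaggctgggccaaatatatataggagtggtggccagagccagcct
Pax5, chr4:44710695-44710944, minus strand: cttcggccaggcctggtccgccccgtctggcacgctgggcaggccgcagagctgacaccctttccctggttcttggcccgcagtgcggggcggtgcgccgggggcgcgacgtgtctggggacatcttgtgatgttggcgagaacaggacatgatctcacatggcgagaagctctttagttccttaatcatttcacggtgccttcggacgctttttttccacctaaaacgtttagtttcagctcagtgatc
Ebf1, the start with a match, chr11:44619978-44620227, plus strand: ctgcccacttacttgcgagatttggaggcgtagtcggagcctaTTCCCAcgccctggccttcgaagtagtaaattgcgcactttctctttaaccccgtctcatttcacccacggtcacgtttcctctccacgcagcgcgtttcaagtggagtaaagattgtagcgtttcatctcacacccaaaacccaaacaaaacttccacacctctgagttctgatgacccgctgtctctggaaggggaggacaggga
Prdm1, chr10:44458749-44458998, minus strand: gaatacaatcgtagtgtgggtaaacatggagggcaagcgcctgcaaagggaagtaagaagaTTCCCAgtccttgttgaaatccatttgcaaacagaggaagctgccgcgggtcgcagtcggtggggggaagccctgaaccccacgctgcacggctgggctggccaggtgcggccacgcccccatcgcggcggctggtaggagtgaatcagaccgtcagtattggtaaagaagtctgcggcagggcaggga
Xbp1, chr11:5520391-5520640, plus strand: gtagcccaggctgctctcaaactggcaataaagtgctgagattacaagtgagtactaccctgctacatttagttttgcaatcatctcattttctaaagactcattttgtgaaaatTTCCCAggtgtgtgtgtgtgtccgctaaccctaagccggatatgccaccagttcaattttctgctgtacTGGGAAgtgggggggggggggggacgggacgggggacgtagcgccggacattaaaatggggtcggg
The table of promoters held 11 such windows for 8 of the members, and none for Ets1. The first base of the Ikaros match lay at -207 from the Ebf1 start and at -189 from the Prdm1 start. Xbp1 had a match at -135 on the opposite strand and another at -66 on its own strand. The windows of Bach2, Bcl6, Ikzf1, Pax5 and Spib, and the other Ebf1 window, had no Ikaros match. The Ikaros core was found in 21.6% of 32536 promoter windows of the same length. Neither the ETS site CCGGAAGT (2.9% of windows), the PU box GAGGAAGT (2.45%) nor a palindromic EBF core, TCCC and GGGA set 2 bases apart (0.787%), was found in any of the 11 windows on either strand. These letters describe the windows and do not show that a factor bound there.

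Library totals lay between 21407724 and 33244755 counts, and a floor of 3 counts was worth 0.0902 to 0.140 CPM (counts normalized to library size). The members were far above this floor. Zc3h12a was at 92.6 to 113 CPM in deficient stimulated against 147 to 157 CPM in control stimulated libraries, and at 89.2 to 111 CPM in deficient unstimulated against 121 to 131 CPM in control unstimulated libraries. By the edgeR test described below, its log2 difference was -0.58 ± 0.08 SE in stimulated cells (adjusted p = 0.000784). In unstimulated cells it was -0.32 ± 0.07, which did not pass (adjusted p = 0.106). Reads from exons outside the floxed part can remain in a deleted gene, and the extent of deletion was not measured here. The Zc3h12a level thus checks the genotype labels only in part. All 7 B cell markers were detected in every library. Their summed level was 2604 to 2885 CPM in deficient stimulated, 2596 to 2747 in control stimulated, 5432 to 6391 in deficient unstimulated and 5647 to 6364 in control unstimulated libraries.

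Libraries shifted several members together. Deficient unstimulated library 1 was the lowest of its 3 for 7 of the 9 members and the highest for Xbp1 and Spib, deficient stimulated library 2 was the highest of its 3 for 7, and deficient unstimulated library 3 and control stimulated library 1 were each the highest for 6. Deficient unstimulated library 1 also had the highest myeloid, neutrophil and erythroid marker sums of the 13 libraries. Its 13 measured myeloid markers summed to 692 CPM, while deficient unstimulated libraries 2 and 3 had 272 and 187 CPM and control unstimulated libraries 186 to 572 CPM. Its 10 neutrophil markers summed to 442 CPM, where deficient libraries 2 and 3 had 74.4 and 58.6 CPM and controls 36.2 to 416 CPM. Its 10 erythroid markers reached 1429 CPM, where deficient libraries 2 and 3 had 209.9 and 811 CPM and controls 374 to 808 CPM, with Hba-a1 and Hba-a2 at 3 counts or fewer in each group. Deficient stimulated library 1 had 250.3 CPM of myeloid, 301 CPM of neutrophil and 1294 CPM of erythroid markers. Deficient stimulated libraries 2 and 3 had 114 and 94.0 CPM of myeloid, 41.7 and 42.8 CPM of neutrophil and 144 and 509.6 CPM of erythroid markers, and control stimulated libraries 107 to 231, 27.1 to 163 and 326 to 521 CPM. Myeloid sums thus moved with stimulation too, with medians of 114 CPM in deficient stimulated against 272 CPM in deficient unstimulated, and 111 CPM in control stimulated against 383 CPM in control unstimulated libraries. T cell markers summed to 45.0 to 164 CPM, NK cell markers to 7.91 to 43.0 CPM and dendritic cell markers to 29.6 to 76.5 CPM over the 13 libraries. Their part in the member results was not tested, and values without that library and its stimulated counterpart are given where they change a call. By sex-linked genes, both were the only deficient libraries read as female. Such values thus compare male deficient libraries with control libraries of both sexes. In bulk RNA, fewer cells of a type and less RNA per cell cannot be told apart.

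The length-scaled levels placed Spib first in all 4 groups and Prdm1 last. In CPM per kilobase of exon, Spib averaged 303 in deficient stimulated, 252 in control stimulated, 288 in deficient unstimulated and 263 in control unstimulated cells. Prdm1 averaged 2.80, 3.53, 2.14 and 2.60 in the same order of groups. Naive control cells then ranked Ets1 (188), Ikzf1 (61.8), Bach2 (49.5), Xbp1 (24.9), Pax5 (20.2), Ebf1 (19.5) and Bcl6 (14.4), of which only the neighbours Pax5 and Ebf1 overlapped between libraries. In naive deficient cells Xbp1, Pax5 and Ebf1 at 25.3, 22.0 and 20.7 overlapped with their neighbours. The order differed in stimulated cells. Ets1 stood at 37.8 in deficient stimulated cells, where it overlapped with Ebf1 (38.8) and Bach2 (37.2), and at 45.7 in control stimulated cells, where it overlapped with its neighbour Ikzf1 (43.7), which overlapped with Bach2 (38.8). Pax5 stood second from last in control stimulated cells, at 9.22, below Bcl6 at 10.8. In deficient stimulated cells Pax5 (10.9) and Bcl6 (9.56) overlapped.

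**Figure D1:**
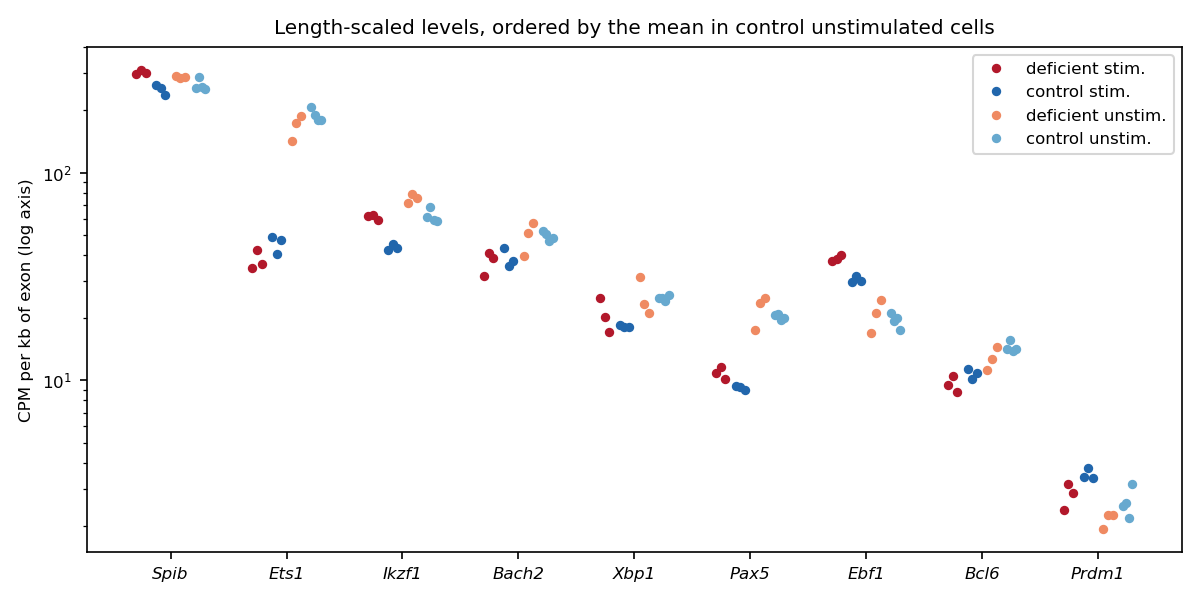
Length-scaled level (CPM per kilobase of exon, log axis) of the 9 members in each of the 13 libraries, 1 point per library, coloured by group. Genes are ordered by their mean in control unstimulated cells, from Spib at 263 to Prdm1 at 2.60, and the drop of Ets1 and Pax5 and the rise of Ebf1 in both stimulated groups can be read off.

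Members were tested in edgeR by its quasi-likelihood test, with Benjamini-Hochberg adjustment over 13574 genes, and a gene was called at an adjusted p under 0.05. All groups shared the estimate of the spread, so leaving out a library could change a call in a comparison that does not include it. All changes given with a test are on the log2 scale unless named as a fold, as value ± SE. After stimulation 7 of the 9 members were called in deficient cells (2 higher, 5 lower) and 8 in control cells (2 higher, 6 lower). This fit did not pair libraries. With same-numbered libraries as a block, Xbp1 was also called in deficient cells, lower (adjusted p = 0.000144). Of all genes tested, 57.9% were called in deficient cells (28.3% higher, 29.6% lower) and 60.3% in control cells (28.5% higher, 31.8% lower), so a call after stimulation was common. The median log2 change of the members was -0.30 in deficient cells, against -0.11 over all genes, and -0.42 in control cells, against -0.13 over all genes. Ebf1 and Prdm1 rose in both genotypes, and Ets1, Pax5, Bach2, Bcl6 and Ikzf1 fell in both. Between the genotypes, 2 of the 9 were called higher in deficient stimulated cells, Ikzf1 and Spib, where 2.01% of all genes were called and 0.751% were called higher. In unstimulated cells none was called by genotype at this threshold, where 0.324% of all genes were called. At an unadjusted p under 0.05 the count in unstimulated cells was 3 members, against 8.63% of all genes, and DESeq2 and limma on the deposited log2 values each called 1, Ikzf1.

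**Figure D2:**
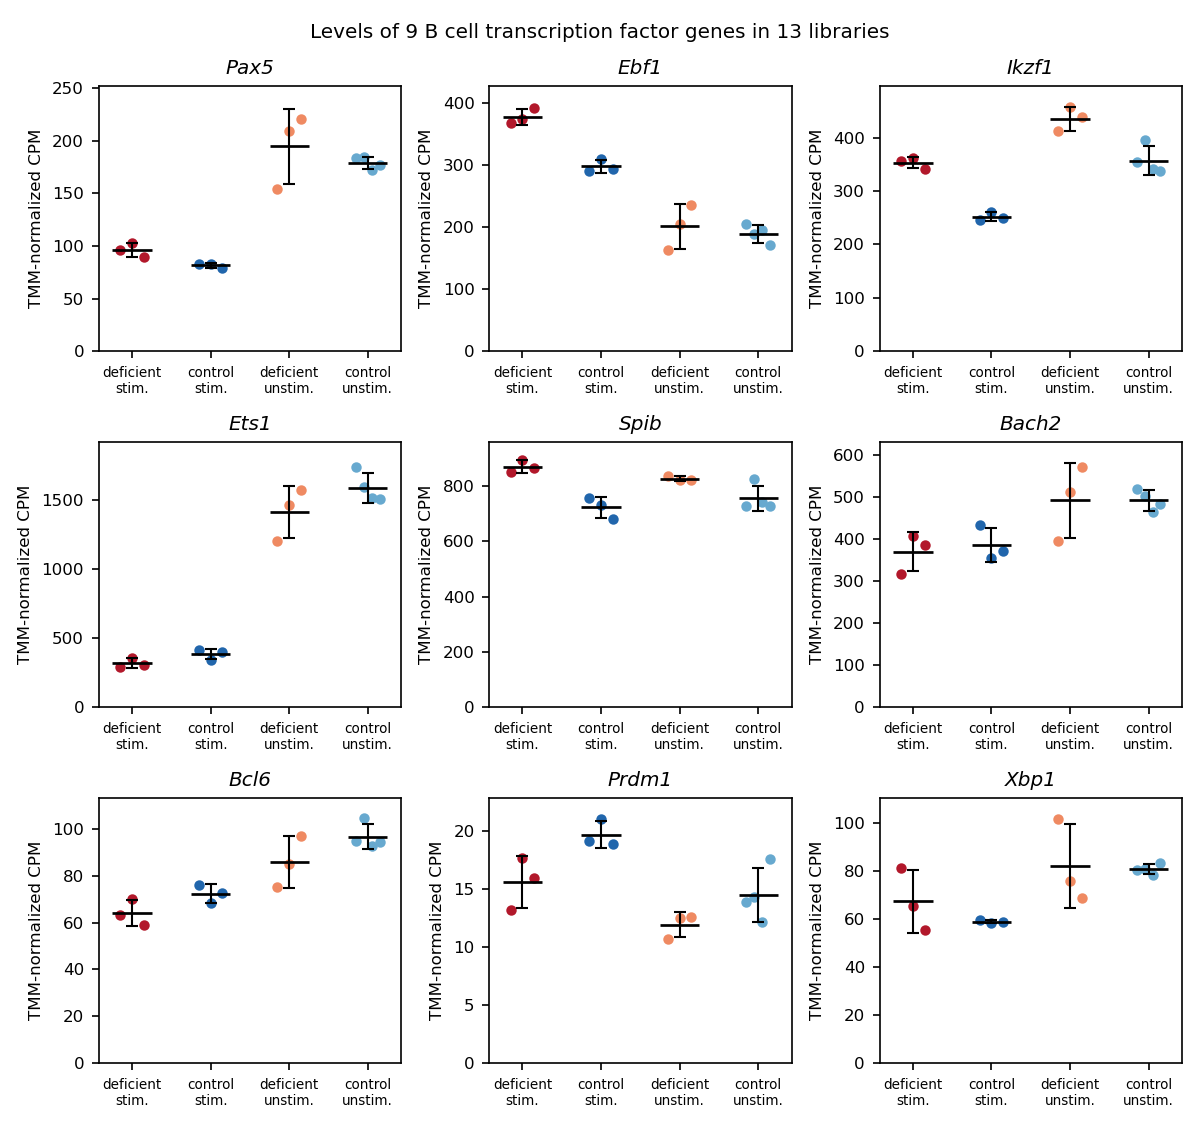
TMM-normalized CPM of the 9 members in each library (points), with the group mean and SD (black lines), in panels that each start at 0. In the Ikzf1 panel all 3 deficient stimulated libraries (341 to 362) lie above all 3 control stimulated ones (246 to 261), and in the Ets1 panel the 6 stimulated libraries lie at 293 to 414.

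Pax5 (chromosome 4, 44524757 to 44710487, minus strand, mm10) encodes the paired-domain factor that commits cells to the B lineage. It was at 96.5, 103 and 89.4 CPM in deficient stimulated libraries 1 to 3 and at 83.2, 82.7 and 79.1 CPM in control stimulated ones, against 154, 209 and 220.3 CPM in deficient unstimulated and 183, 185, 172 and 177 CPM in control unstimulated libraries. Every stimulated library lay below every unstimulated one. Pax5 was 2.02-fold lower after stimulation in deficient cells (log2 change -1.01 ± 0.10 SE, adjusted p = 7.1e-07) and 2.19-fold lower in control cells (-1.13 ± 0.10, adjusted p = 1.1e-07). The 3 deficient stimulated libraries lay above the 3 control stimulated ones, with a log2 difference of 0.24 ± 0.10 that was not called (adjusted p = 0.363). Without deficient unstimulated library 1, which is in neither group compared, that difference stayed at 0.24 and was called (adjusted p = 0.0322). Without both deficient libraries numbered 1, which leaves only male deficient libraries, it was 0.25 (adjusted p = 0.0487). With sex as a term it was not called. The unstimulated groups overlapped, with a difference of 0.12 ± 0.09 (adjusted p = 0.789). On the opposite strand, the antisense gene Gm12462 and 5730488B01Rik, a gene of unconfirmed type, overlap Pax5 exons over 125 and 636 bases. Their reads cannot be separated because the sources used here give no strand setting for the counting.

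Ebf1 (chromosome 11, 44617317 to 45008091, plus strand) encodes early B cell factor, which acts with Pax5. It was at 367, 375 and 392 CPM in deficient stimulated and 290.4, 310.4 and 294 CPM in control stimulated libraries, against 164, 205 and 237 CPM in deficient unstimulated and 205, 188, 195 and 171 CPM in control unstimulated libraries. Stimulated libraries were all higher than unstimulated ones, the opposite of Pax5. The rise was 1.87-fold in deficient cells (0.91 ± 0.10, adjusted p = 2.1e-06) and 1.57-fold in control cells (0.65 ± 0.09, adjusted p = 2.5e-05). Deficient stimulated libraries all lay above control stimulated ones, a difference of 0.34 ± 0.10 that was not called (adjusted p = 0.128) though it was called in 6 of 23 alternatives. These included leaving out deficient unstimulated library 1 (adjusted p = 0.0123) or library 3 (adjusted p = 0.0433), which are in neither group compared. They also included leaving out both libraries numbered 1 of the deficient cells (0.37, adjusted p = 0.00720), which leaves only male deficient libraries. With sex as a term the difference was not called. In unstimulated cells the groups overlapped and the difference was 0.09 ± 0.10 (adjusted p = 0.863).

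Ikzf1 (chromosome 11, 11685003 to 11772926, plus strand), the zinc finger factor Ikaros, had the smallest adjusted p of the members for a difference by genotype. It was at 357, 362 and 341 CPM in deficient stimulated against 246, 261 and 250.3 CPM in control stimulated libraries, and at 412, 456 and 438 CPM in deficient unstimulated against 354, 396, 340.3 and 337 CPM in control unstimulated libraries. Deficient libraries lay above control libraries in both states with no overlap. In stimulated cells Ikzf1 was 1.40-fold higher in deficient cells (0.49 ± 0.07, adjusted p = 0.000784), a call kept in all 23 alternatives, with changes of 0.45 to 0.51. In unstimulated cells the difference was 0.29 ± 0.06 and was not called (adjusted p = 0.0729). It was called in 11 of 23 alternatives, with adjusted p between 7.7e-05 and 0.336 over all of them. The 11 included leaving out control unstimulated library 2 (adjusted p = 0.0262) or deficient stimulated library 1 (adjusted p = 0.0116). They also included leaving out both deficient libraries numbered 1 (0.32, adjusted p = 0.0168), and sex as a term (adjusted p = 0.0327). Ikzf1 was lower after stimulation in both genotypes, with log2 changes of -0.30 ± 0.07 in deficient (adjusted p = 0.000934) and -0.50 ± 0.06 in control cells (adjusted p = 3.4e-06).

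Ets1 (chromosome 9, 32636221 to 32757820, plus strand) encodes the founding ETS factor, whose loss in mice leads to excess plasma cells. It had 293, 359.8 and 309 CPM in deficient stimulated and 414, 345 and 403 CPM in control stimulated libraries, against 1206, 1465 and 1577 CPM in deficient unstimulated and 1742, 1601, 1516 and 1509 CPM in control unstimulated libraries. All stimulated libraries lay far below all unstimulated ones. Ets1 showed the largest change of the 9 members, 4.42-fold lower with stimulation in deficient cells (-2.14 ± 0.11, adjusted p = 2.5e-10) and 4.11-fold lower in control cells (-2.04 ± 0.10, adjusted p = 2.0e-10). The genotypes overlapped in both states, with differences of -0.27 ± 0.11 in stimulated (adjusted p = 0.281) and -0.17 ± 0.10 in unstimulated cells (adjusted p = 0.682), and with sex as a term the stimulated difference was called (adjusted p = 0.0127).

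Spib (chromosome 7, 44525993 to 44532071, minus strand) encodes a lymphoid relative of the factor that Spi1 encodes. It was at 850.1, 893 and 865 CPM in deficient stimulated against 754, 732 and 680.3 CPM in control stimulated libraries, and at 837, 819 and 822 CPM in deficient unstimulated against 728, 824, 739.6 and 726 CPM in control unstimulated libraries. Deficient stimulated libraries all lay above control stimulated ones, and the unstimulated groups overlapped through control library 2 alone. Spib was 1.20-fold higher in deficient stimulated cells (0.27 ± 0.06, adjusted p = 0.0350). That call was lost with DESeq2's size factors (adjusted p = 0.0621) and on leaving out any of 7 libraries: deficient unstimulated 2, deficient stimulated 2 or 3, control unstimulated 3, or control stimulated 1, 2 or 3 (adjusted p up to 0.159). The change stayed at 0.23 to 0.30 in those settings. The unstimulated difference was 0.13 ± 0.06 (adjusted p = 0.535). The change of Spib after stimulation was not called in deficient (0.07 ± 0.06, adjusted p = 0.326) or control cells (-0.06 ± 0.06, adjusted p = 0.365). The control value was called with upper-quartile factors (-0.13, adjusted p = 0.0364).

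Bach2 and Bcl6 restrain the plasma cell programme. Bach2 (chromosome 4, 32238804 to 32586108, plus strand) was at 318, 407 and 384 CPM in deficient stimulated and 432, 354 and 371 CPM in control stimulated libraries, against 395, 511 and 570.2 CPM in deficient unstimulated and 519, 503, 463 and 482 CPM in control unstimulated libraries. Control stimulated libraries all lay below control unstimulated ones, and the deficient groups overlapped. Bach2 fell by 0.41 ± 0.13 on the log2 scale in deficient cells (adjusted p = 0.0121) and by 0.35 ± 0.12 in control cells (adjusted p = 0.0199). The deficient call was lost without deficient unstimulated library 3 (-0.29, adjusted p = 0.0606) or deficient stimulated library 1 (-0.27, adjusted p = 0.0568). The control call was lost without control stimulated library 2 (adjusted p = 0.0876) or 3 (adjusted p = 0.0684), with DESeq2's size factors (adjusted p = 0.0576) and in limma (adjusted p = 0.0607). The antisense gene Bach2os shares 537 bases with its exons.

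Bcl6 (chromosome 16, 23965052 to 23988852, minus strand), the zinc finger repressor needed for germinal centres, was at 63.3, 69.9 and 59.0 CPM in deficient stimulated and 76.2, 68.3 and 72.6 CPM in control stimulated libraries. Unstimulated libraries held 75.2, 85.1 and 97.0 CPM in deficient and 94.8, 104, 92.7 and 94.5 CPM in control cells. Stimulated libraries lay below unstimulated ones of the same genotype. Bcl6 fell by 0.42 ± 0.09 in deficient cells (adjusted p = 0.000722) and by 0.42 ± 0.08 in control cells (adjusted p = 0.000403), on the log2 scale. Genotypes overlapped for Bach2 and Bcl6 in both states, with log2 differences between -0.17 and 0.00, none called. Gm37419 overlaps Bcl6 over 21 bases on the opposite strand.

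Prdm1 (chromosome 10, 44437177 to 44528501, minus strand), the plasma cell regulator Blimp-1, was the lowest member. It was at 13.2, 17.7 and 16.0 CPM in deficient stimulated and 19.2, 21.05 and 18.9 CPM in control stimulated libraries, against 10.7, 12.5 and 12.6 CPM in deficient unstimulated and 13.9, 14.3, 12.1 and 17.6 CPM in control unstimulated libraries. Stimulated libraries were higher than unstimulated ones within each genotype. Prdm1 rose 1.31-fold in deficient (0.39 ± 0.14, adjusted p = 0.0251) and 1.36-fold in control cells (0.44 ± 0.13, adjusted p = 0.00740). The deficient rise was not called without deficient unstimulated library 1 (adjusted p = 0.0935), without deficient stimulated library 2 (0.122) or 3 (0.0609), or with upper-quartile factors (0.0737). Deficient stimulated libraries lay below control stimulated ones, a difference of -0.33 ± 0.14 that was not called (adjusted p = 0.331), and the unstimulated groups overlapped at -0.28 ± 0.13 (adjusted p = 0.570).

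Xbp1 (chromosome 11, 5520659 to 5525893, plus strand) encodes the factor that enlarges the secretory pathway in plasma cells, and gene counts do not separate its spliced and unspliced forms. It was at 81.3, 65.6 and 55.3 CPM in deficient stimulated and 59.8, 58.4 and 58.9 CPM in control stimulated libraries, against 102, 75.9 and 68.9 CPM in deficient unstimulated and 80.7, 81.0, 78.6 and 83.3 CPM in control unstimulated libraries. Its 3 deficient libraries were spread over a wider range than the controls in both states. The control fall was 0.45 ± 0.13 on the log2 scale (adjusted p = 0.00941). The deficient value, -0.29 ± 0.14, was not called (adjusted p = 0.0974), and with same-numbered libraries as a block it was -0.28 (adjusted p = 0.000144). It was also called without deficient unstimulated library 3 (-0.40, adjusted p = 0.0263), without deficient stimulated library 1 (-0.42, adjusted p = 0.0389) and with sex as a term (adjusted p = 0.0393). The genotypes overlapped in both states, with differences of 0.19 ± 0.14 stimulated and 0.02 ± 0.13 unstimulated, neither called. In the deficient libraries the summed level of 5 plasma cell markers had the same order of libraries as Xbp1, at 602, 507 and 441 CPM stimulated and 490, 300.4 and 242 CPM unstimulated, libraries 1 to 3 in each case. Control libraries held 456 to 505 CPM stimulated and 324 to 445 CPM unstimulated. Sdc1, 1 of these markers, moved the other way with stimulation. It averaged 12.7 CPM stimulated and 28.8 CPM unstimulated in deficient cells, and 20.3 and 43.3 CPM in control cells. The sum is thus no measure of plasma cell number, and the markers' part in the Xbp1 values was not tested.

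**Figure D3:**
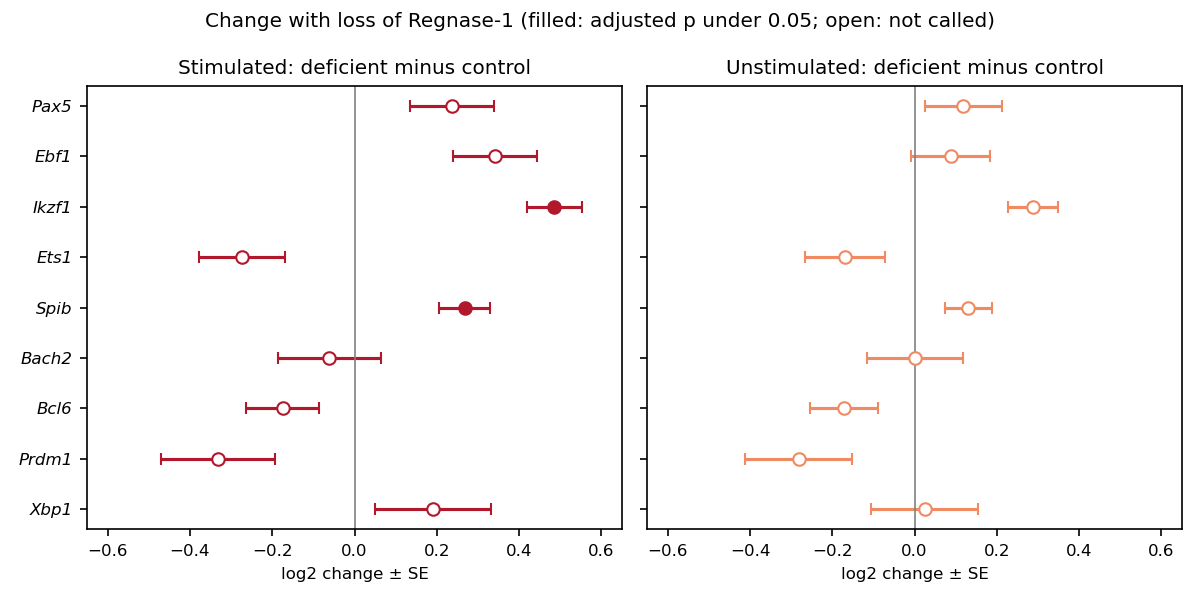
Log2 change ± SE of each member, deficient minus control, in stimulated (left) and unstimulated (right) cells. Filled points, Ikzf1 at 0.49 and Spib at 0.27 in stimulated cells, passed the adjusted threshold, and open points did not.

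Between the genotypes, the 3 libraries of each stimulated group did not overlap for 5 of the 9 members, against 17.8% of all genes. Pax5, Ebf1, Spib and Ikzf1 were higher in deficient cells, against 7.8% of all genes that were higher without overlap, and Prdm1 was lower. In unstimulated cells Ikzf1 was the 1 member that was higher without overlap, against 3.14% of all genes that were higher without overlap. No member was lower without overlap there. The median log2 difference of the 9 members was 0.19 in stimulated cells, against 0.00 over all genes, and 0.02 in unstimulated cells, against -0.02 over all genes. Among called genes of unstimulated cells, 17 were higher and 27 lower with TMM, 21 and 20 with DESeq2's size factors, and 36 and 34 with upper-quartile factors.

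The response to stimulation was then compared between the genotypes. Library numbers paired the states within a genotype, and each pair's response is the log2 CPM of the stimulated minus the unstimulated library. Ikzf1 responses were -0.21, -0.34 and -0.36 in deficient pairs and -0.53, -0.60 and -0.44 in control pairs, so the fall was smaller in every deficient pair. Ebf1 responses were 1.16, 0.87 and 0.73 in deficient pairs and 0.50, 0.72 and 0.59 in control pairs, a larger rise in every deficient pair. The nearest Ebf1 values, 0.73 and 0.72, barely differed. The 1.16 came from deficient pair 1, whose unstimulated library was the lowest of its group for Ebf1. Xbp1 responses were -0.33, -0.21 and -0.32 in deficient pairs and -0.43, -0.47 and -0.42 in control pairs. Those 3 members were higher in deficient pairs without overlap, against 8.31% of all genes. Pax5 spread from -1.30 to -0.67 over the deficient pairs and from -1.16 to -1.12 over the control pairs, which overlapped.

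None of the 9 differences of response was called by edgeR, where 0.00737% of all genes were called, and 1 had an unadjusted p under 0.05, against 3.76% of all genes. DESeq2 and limma also called none. The differences were 0.20 ± 0.09 for Ikzf1 and 0.25 ± 0.14 for Ebf1. With the pairs as a block they were 0.22 for Ikzf1 (adjusted p = 0.266) and 0.32 for Ebf1 (adjusted p = 0.349), no member was called, and the count over all genes was 68, against 1 without the block.

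**Figure D4:**
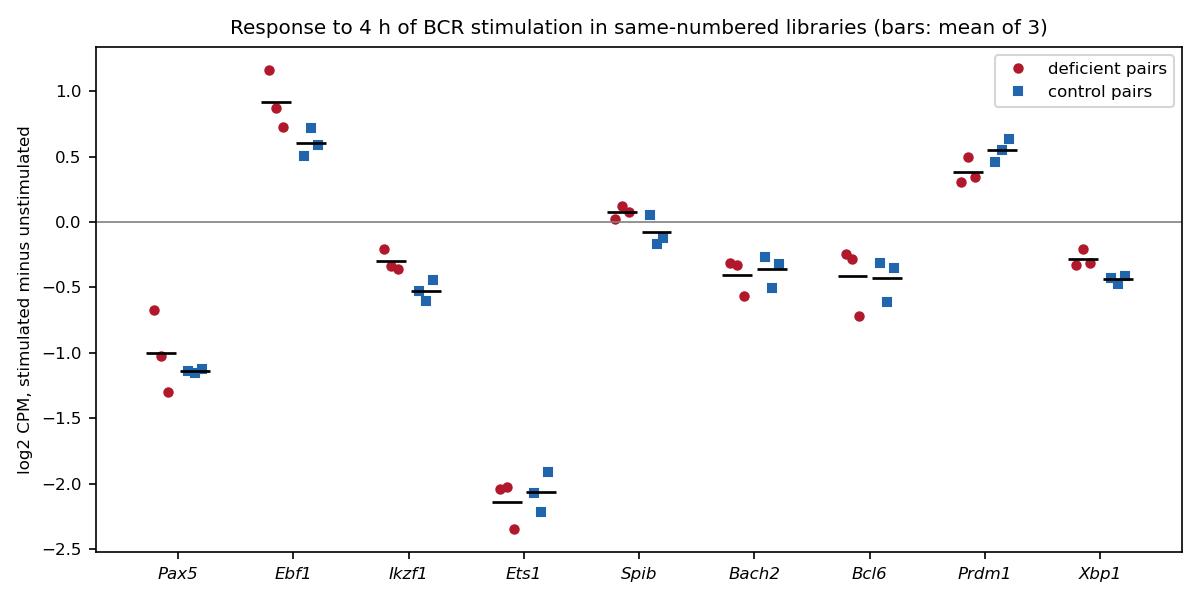
Response of each member in same-numbered libraries (log2 CPM, stimulated minus unstimulated), with deficient pairs (circles) left of control pairs (squares) and bars at the mean of 3. Ets1 lies near -2 in both genotypes, Ebf1 above 0.5 in both, and the Ikzf1, Ebf1 and Xbp1 points do not overlap between genotypes.

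Other B cell transcription factors, 30 genes listed with earlier results of these data known, gave 5 higher and 1 lower call in deficient stimulated cells. Of all genes, 2.01% were called there and 0.751% were called higher. Batf, an AP-1 family factor, was higher by 1.27 ± 0.08, Pou2f2, an octamer-binding factor, by 0.72 ± 0.07, Zeb2, a zinc finger repressor, by 0.62 ± 0.10, and Bcl11a, a zinc finger factor needed in lymphoid development, by 0.60 ± 0.08. In unstimulated cells 2 were higher and 1 lower, where 0.324% of all genes were called. After stimulation 11 rose and 16 fell in deficient cells, and 10 rose and 17 fell in control cells, where 57.9% of all genes were called in deficient and 60.3% in control cells. Bhlhe40, a basic helix-loop-helix repressor, rose by 1.95 ± 0.07 in deficient and 2.26 ± 0.07 in control cells. Tcf3, which encodes E proteins that act with Ebf1, fell by 1.66 ± 0.07 in deficient and fell by 1.71 ± 0.06 in control cells, on the log2 scale.

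The other lists were likewise chosen with earlier results known. Of 25 B cell identity genes (a list that also holds Spn, which encodes CD43), 16 fell and 4 rose in deficient cells and 17 fell and 5 rose in control cells, at a median of -1.08 in deficient and -1.02 in control cells. Over all genes 57.9% were called in deficient and 60.3% in control cells, with medians of -0.11 and -0.13. Cd79a, a receptor component that Pax5 and Ebf1 regulate, fell by 2.05 ± 0.09 in deficient and fell by 2.10 ± 0.08 in control cells, while Cd72, a receptor that damps BCR signals, rose by 1.70 ± 0.07 in control cells. By genotype, 3 were higher and 2 lower in deficient stimulated cells, among them Fcrl1 (0.50 ± 0.07), and none was called in unstimulated cells. Of all genes, 2.01% were called by genotype in stimulated and 0.324% in unstimulated cells. Of 18 plasma cell genes, 2 rose and 8 fell with stimulation in each genotype, a share called no higher than the 57.9% of all genes in deficient and 60.3% in control cells, with Sec11c at -1.39 ± 0.08 in deficient and -1.51 ± 0.07 in control cells. Ell2, an elongation factor used in immunoglobulin secretion, was lower by 0.42 ± 0.08 (adjusted p = 0.00953) and Sdc1, which encodes CD138, by 0.68 ± 0.16 (adjusted p = 0.0486) in deficient stimulated cells, on the log2 scale.

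Of 20 secretory genes linked to Xbp1, 9 rose and 4 fell in deficient cells, where 57.9% of all genes were called, and 9 rose and 7 fell in control cells, where 60.3% were. The chaperone gene Hspa5 rose by 1.46 ± 0.06 in deficient and 1.47 ± 0.05 in control cells, and Ero1lb, an oxidoreductase gene, fell by 1.49 ± 0.08 in deficient cells and fell by 1.44 ± 0.08 in control cells. Of 18 partners and corepressors, 10 rose and 2 fell in deficient cells and 9 rose and 4 fell in control cells, against the same 57.9% and 60.3% of all genes called. Mafk, a small Maf partner of Bach2, rose by 1.56 ± 0.07 in each, and Hdac5, a histone deacetylase gene, fell by 1.23 ± 0.09 in deficient cells and fell by 1.27 ± 0.09 in control cells. In deficient stimulated cells the Bcl6 corepressor gene Bcor was higher by 0.35 ± 0.06 (adjusted p = 0.00401) and the Groucho family corepressor gene Tle4 by 0.34 ± 0.08 (adjusted p = 0.0313). Of 9 germinal centre genes tested, Lmo2 was the 1 called by genotype, higher by 0.86 ± 0.12 in deficient stimulated cells (adjusted p = 0.00152). In that comparison 2.01% of all genes were called.

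For the members that moved more than 2-fold in control cells, the genes of most similar pattern over the 13 libraries were sought among 8990 genes. Ets1 was closest to Cerk, with a root mean square difference of 0.0597 in log2 CPM relative to the control unstimulated mean, and then to Plekho1 (0.0865). Pax5 was closest to Ndst1 (0.0917) and Zmym3 (0.0990).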

How the data were processed

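Each of the 13 libraries came with 2 tables. In one, the authors deposited whole-number read counts by gene symbol, made on the mm10 build with TopHat and HTSeq, per the submitters' processing notes, which give no versions. Annotation, strand and multi-mapping settings were not given in the sources used here. In the other, the authors deposited log2 values, with DESeq2 named in the same notes and the transformation not stated there. These log2 values served only as an alternative, in limma 3.58.1.

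Counts of 23336 symbols (1 more had a missing cell) were fitted in edgeR 4.0.16 (R 4.3.3). Low counts were removed with filterByExpr (minimum count 10), which kept 13574 genes. Libraries were scaled by TMM, and the robust quasi-likelihood model had 1 mean per group and 9 residual degrees of freedom. Standard errors are the log2 change over the root of the F statistic, and adjusted p-values are Benjamini-Hochberg over all genes tested. The fit was run on simulated unpaired counts. The changes set there were larger than the members' differences by genotype, so that run does not check those. GENCODE vM21 gave coordinates and exon lengths and matched 89.7% of symbols by name.

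The members and gene lists were chosen with earlier results of these data known. Named genes are the members, Zc3h12a, up to 4 genes per list with the smallest p in a comparison, and for members that changed by over 1 on the log2 scale in control cells the 2 most similar genes. The labels do not say that libraries are separate animals, and p-values then measure only the spread between these samples. Chi-square per gene was 8.22 to 36.1, so no 2 replicates agreed within sampling noise. Same-numbered libraries of the 2 states deviated together within a genotype (r = 0.52 to 0.78 over 7315 genes), so numbers pair the states. With pairs as a block, 4 residual degrees of freedom remained. The alternatives tried were DESeq2 1.42.0, other scaling factors and filters, limma, only the groups compared, sex as a term, blocks, and leaving out libraries. Counting floors cover counting error only.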

Additional observations from a re-analysis of the deposited data

Results flagged for a closer look

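Spib in control unstimulated cells was flagged because library 2, at 824 CPM, stood apart from the other 3 libraries, at 726 to 739.6 CPM. Its gap to the nearest library was 0.861 of the group's whole range, above Dixon's critical value of 0.829 for 4 samples. Groups of 3 libraries were not checked in this way, so all 18 values looked at were of control unstimulated cells. Of the 18, 1 was flagged, and chance flags about 1 in 20.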

How the results depend on the processing

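Of the log2 changes of the members, 944 alternative values kept their direction and side of the threshold, 25 passed it only under the alternative, 18 no longer passed it and 38 changed sign. In each result that changed sign the change was not called in the edgeR fit described above, and the cause was not tested. Of these results, the response of Spib in control cells was called with upper-quartile factors (-0.13, adjusted p = 0.0364). Alternatives that changed sign were, for the deficient against control difference in Bach2, 0.046 in stimulated cells without both libraries of deficient pair 1, and -0.017 with the replicate-number block and -0.13 with sex as a term in unstimulated cells. Xbp1 in unstimulated cells was -0.16 without pair 1. For the difference of responses, Bcl6 was 0.013 with the pair block and 0.011 with sex as a term, and Pax5 was -0.011 without pair 1. The response of Spib was -0.019 in deficient cells with upper-quartile factors, and in control cells 0.0086 with DESeq2's size factors, 0.011 in DESeq2 and 0.010 in limma. Leaving out each library in turn gave Bach2 -0.14 to 0.046 (stimulated) and -0.12 to 0.14 (unstimulated), Ebf1 -0.041 to 0.22 and Xbp1 -0.16 to 0.14 (unstimulated), and for the difference of responses Bach2 -0.20 to 0.057, Bcl6 -0.088 to 0.094, Pax5 -0.024 to 0.22, Prdm1 -0.16 to 0.047 and Xbp1 -0.0089 to 0.35. DESeq2 gave no adjusted p for Prdm1 there.

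Members called by genotype in stimulated cells numbered 2, but 1 with DESeq2's size factors, 3 in DESeq2, with only the groups compared and with upper-quartile factors (Ebf1 added) and with sex (Ets1 added, lower), 4 without pair 1 and 1 to 4 on leaving out a library. In unstimulated cells the 0 became 1 with the 1 CPM filter, DESeq2's size factors, DESeq2, limma, no filter, only the groups compared, sex, upper-quartile factors and without pair 1, and was 0 to 1 on leaving out a library. Over all genes, the 44 calls in unstimulated cells became 159 in DESeq2, 198 with sex, 70 with upper-quartile factors, 74 without pair 1 and 17 to 74 on leaving out a library. The 273 in stimulated cells became 524 in DESeq2, 511 with sex and 129 to 369 on leaving out a library. The 1 difference of responses became 40 in DESeq2, 10 with no filter, 68 with the pair block, 19 with sex, 12 with upper-quartile factors, 13 without pair 1 and 1 to 10 on leaving out a library. Same-numbered libraries of different genotypes share only a number (r = -0.54 to -0.07). That replicate-number block gave 37 calls in unstimulated and 274 in stimulated cells, and left the count of members called at 0 and 2. The pair block changed the call of no other member than Xbp1 in deficient cells. By sex-linked genes, 1 of 3 deficient libraries in each state, 2 of 3 control stimulated and 3 of 4 control unstimulated libraries were read as female, so the genotypes were unbalanced for sex, and within deficient cells sex and pair 1 cannot be told apart.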
